A study of Mus musculus with 30 samples.

Results

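The genes described are matrix metalloproteinases and their tissue inhibitors, the TIMPs. They were chosen by name: Mmp2, Mmp3, Mmp9, Mmp10, Mmp11, Mmp14, Timp1, Timp2, Timp3 and Timp4, which are 10 of the 55487 genes of the count table. Of these 10 members, 6 passed a filter on low counts that kept 15907 genes, namely Mmp2, Mmp11, Mmp14, Timp1, Timp2 and Timp3. RNA was sequenced from myotubes of C2C12, a mouse myoblast line whose cells fuse into multinucleated muscle fibres in culture.

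All cultures were wild type and were differentiated for 4 days, then kept for 4 more in 1 of 5 media, 8 days in all. The 2% HS group stayed in medium with 2% horse serum, and the serum-deprived group (SD) had none. The other groups were serum-deprived like SD: MET also received 100 nM metformin, a diabetes drug that acts on mitochondria, LEU 500 nM leucine, an amino acid that signals to protein synthesis, and MET+LEU both agents at those doses. Each group had 6 libraries, which the labels do not tie to separate cultures, so p-values measure the spread between these libraries, which may be technical.

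Matrix metalloproteinases are zinc-dependent enzymes that cut collagens, laminins and other proteins outside the cell, and most are made as inactive precursors. TIMPs block their active site. In muscle, these enzymes take part in remodelling the basement membrane around the fibres, in the migration and fusion of myoblasts and in repair after injury, where fibroblasts and inflammatory cells are further sources of them.

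Libraries held between 12784960 and 19604103 counts. MET+LEU replicate 6 stood apart: nuclear ribosomal RNA took 5.85% of its counts and mitochondrial ribosomal RNA 7.64%, against at most 1.96% and 0.760% in the other libraries. It had the lowest Mmp2, Mmp11, Mmp14 and Timp2 and the highest Timp1 of its group. Member results of MET+LEU that rest on it are therefore also given without it. For genes outside the members, no values without this library are given. All 8 myotube markers passed the filter, with a summed level of 28210 to 41300 CPM (each library's counts scaled by TMM to a common total). Of 6 macrophage and leukocyte markers, Cd68 alone passed the filter, with 1212 counts over the 30 libraries. Csf1r, below the filter, had 167 counts and was at 0 in no library, while Adgre1, a defining macrophage gene, had 0 counts in all 30. None of 4 endothelial markers passed the filter.

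The upstream windows of the members fell into different kinds. RefSeq windows of 250 bases before the annotated start (GRCm38.p6) were available for 8 of the 10 members, all but Mmp2 and Mmp9. Mmp3 and Mmp10, the stromelysins, are shown because both held an AP-1 motif (TGANTCA) and a TATA box (TATAAA) and neither transcript was counted. Timp1 and Timp3 are shown because they were the members higher in MET+LEU than in SD. Capitals mark matches on either strand to AP-1, TATA box, ETS (AGGAAG) or GC box (GGGCGG) letters, and bases that GENCODE places in an exon are left out.
Mmp3, chr9:7445572-7445821, plus strand: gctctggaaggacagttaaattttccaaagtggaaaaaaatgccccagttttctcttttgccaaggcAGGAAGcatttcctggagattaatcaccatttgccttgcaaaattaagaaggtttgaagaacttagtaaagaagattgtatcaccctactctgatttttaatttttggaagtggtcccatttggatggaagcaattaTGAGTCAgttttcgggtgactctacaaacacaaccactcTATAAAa
Mmp10, chr9:7502092-7502341, plus strand: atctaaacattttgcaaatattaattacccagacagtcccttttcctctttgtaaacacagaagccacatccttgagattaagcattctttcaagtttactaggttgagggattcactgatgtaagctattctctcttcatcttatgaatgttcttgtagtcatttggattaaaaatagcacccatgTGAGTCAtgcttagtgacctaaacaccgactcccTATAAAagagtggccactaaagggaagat
Timp1, chrX:20869916-20870165, plus strand: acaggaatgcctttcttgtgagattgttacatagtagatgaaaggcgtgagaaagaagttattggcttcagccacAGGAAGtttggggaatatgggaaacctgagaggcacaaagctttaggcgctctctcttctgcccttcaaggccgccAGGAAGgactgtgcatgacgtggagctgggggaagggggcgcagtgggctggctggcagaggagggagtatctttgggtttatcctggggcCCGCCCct
Timp3, chr10:86300162-86300371, plus strand: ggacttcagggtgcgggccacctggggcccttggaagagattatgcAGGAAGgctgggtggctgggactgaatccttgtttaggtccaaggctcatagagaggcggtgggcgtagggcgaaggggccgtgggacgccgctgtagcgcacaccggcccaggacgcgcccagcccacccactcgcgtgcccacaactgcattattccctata

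With the base before the start as -1, the AP-1 letters began at -46 in Mmp3 and at -63 in Mmp10, and were in no other member's window. They were in 6.75% of all 32851 windows of this length. The TATA box letters were likewise in Mmp3 and Mmp10 alone among the 8 members with a window, against 12.4% of all windows. They began at -7 in Mmp3, next to the annotated start, and at -29 in Mmp10. ETS letters were found in Mmp3, Mmp14, Timp1, Timp3 and Timp4, with matches in Timp1 that began at -175 and -99, against 29.5% of all windows. GC box letters were in Mmp11, Mmp14, Timp1, Timp2 and Timp3, and in 32.7% of all windows. In Timp2 and Timp3 the match lay in the part that the exon rule leaves out, which for Timp2 is the whole window. The motifs do not overlap each other, and a match describes the letters only.

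Levels per kilobase of exon placed Timp2 first. In 2% HS the mean was 168 ± 6.78 CPM per kilobase (SD of the 6 libraries) for Timp2, 117 ± 4.22 for Mmp2, 84.9 ± 3.60 for Mmp14, 59.9 ± 4.04 for Timp1, 45.8 ± 2.80 for Timp3 and 14.8 ± 1.14 for Mmp11. Neighbours in this order differed by more than the sum of their SDs. In SD, Mmp14 at 81.8 ± 5.76 and Timp1 at 81.9 ± 7.34 could not be told apart. Per kilobase of the longest transcript instead, Mmp14 stood above Mmp2 and Timp3 above Timp1 in 2% HS.

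**Figure D1:**
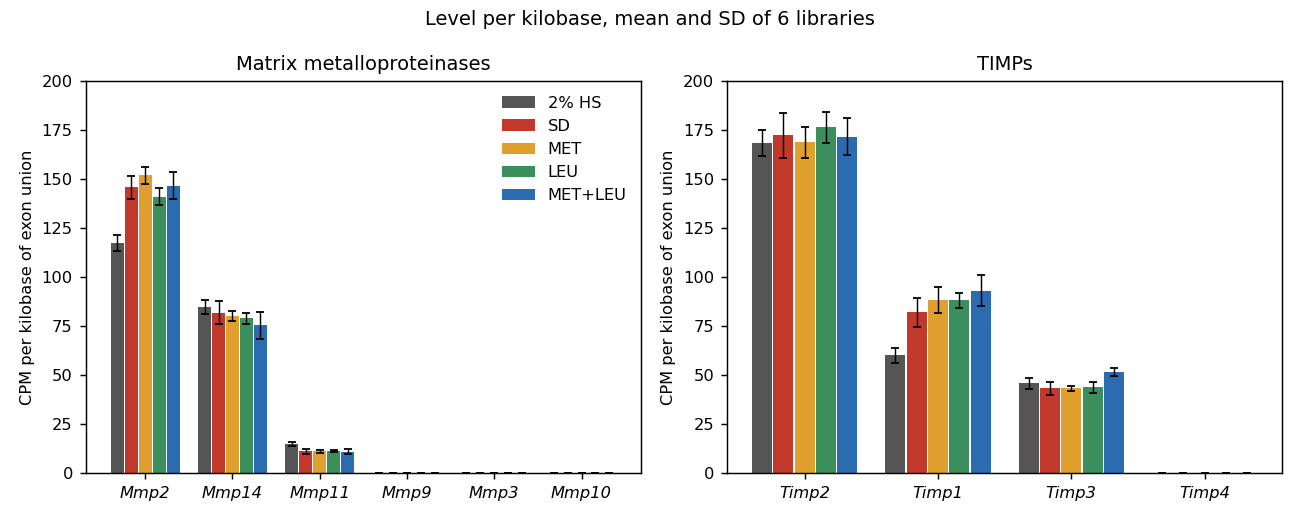
Mean level of each member in CPM per kilobase of exon union (bars) with the SD of 6 libraries (error bars) in the 5 groups. Timp2 is the highest in every group, and Mmp3, Mmp9, Mmp10 and Timp4 lie on the axis.

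Summed over the members and per kilobase of exon union, metalloproteinases came to 217 ± 6.35 in 2% HS, 239 ± 10.9 in SD and 233 ± 14.3 in MET+LEU. TIMPs came to 274 ± 7.16, 297.5 ± 12.4 and 316 ± 9.44 CPM per kilobase in the same groups. The ratio of TIMP to metalloproteinase transcripts was 1.26 ± 0.03 in 2% HS and 1.25 ± 0.05 in SD, then 1.24 ± 0.04 with MET, 1.34 ± 0.06 with LEU and 1.36 ± 0.08 with MET+LEU. MET+LEU replicate 6 had a ratio of 1.51, and the other 5 libraries ran from 1.301 to 1.373 with a mean of 1.33 ± 0.03, near that of LEU. Without it the metalloproteinase sum in MET+LEU was 238 ± 6.03 and the TIMP sum 317 ± 10.2 CPM per kilobase. These sums were not tested, and they depend on the transcript length used.

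The first question was what 4 days without serum did to the transcripts. Of the 6 members tested, 3 passed the threshold in SD vs. 2% HS, Mmp2 and Timp1 higher and Mmp11 lower, where 27.8% of the 15907 genes passed in either direction. The median log2 fold change of the 6 members was -0.01, beside 0.00 over all genes tested. The SD libraries are also the control of each comparison below that is named as vs. SD, so those comparisons share it.

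Mmp2 (ENSMUSG00000031740, 8:92827291-92853420 of GRCm38, plus strand) encodes gelatinase A, which cuts type IV collagen and denatured collagens. Its CPM ran from 373 to 410 in 2% HS (median 397), and from 462 to 518 in SD (median 489). All 6 SD libraries lay above all 2% HS libraries. The log2 fold change was 0.31 ± 0.03 (SE), with a 95% interval of 0.24 to 0.38 and an adjusted p of 3.1e-10 (edgeR's quasi-likelihood test, Benjamini-Hochberg over all genes tested, as throughout). In these bulk libraries, a change in the share of cells that make a transcript and a change per cell cannot be told apart.

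Mmp2 stayed near the SD level with either agent or both. Its CPM was 496 to 533 in MET (median 511), 451 to 490 in LEU (median 480) and 456 to 519 in MET+LEU (median 500.2). Each of these groups overlapped SD and lay above every 2% HS library. MET+LEU vs. SD gave 0.01 (95% interval -0.06 to 0.08, adjusted p = 0.916), and MET+LEU vs. 2% HS gave 0.32 ± 0.03 (adjusted p = 1.2e-10). Without MET+LEU replicate 6, the library at 456 CPM, these were 0.02 and 0.33.

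Mmp11 (ENSMUSG00000000901, 10:75923222-75936496, minus strand) encodes stromelysin 3, which furin activates inside the cell before secretion. Its CPM was 37.7 to 45.25 in 2% HS (median 41.3) and 27.04 to 36.6 in SD (median 29.5). All SD libraries lay below all 2% HS libraries. The log2 fold change was -0.43 ± 0.07, with a 95% interval of -0.56 to -0.29 and an adjusted p of 3.7e-06.

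Mmp11 also remained near the SD level in the treated groups. It ran from 27.9 to 33.4 CPM in MET, from 29.4 to 33.1 in LEU and from 23.4 to 35.1 in MET+LEU, with medians of 30.4, 30.9 and 30.3. The range of SD overlapped each of these groups, and the log2 fold change of MET+LEU vs. SD was -0.02 (95% interval -0.16 to 0.12). MET+LEU libraries were all below those of 2% HS, with a log2 fold change of -0.44 ± 0.07 (adjusted p = 1.1e-06), or -0.39 without MET+LEU replicate 6. Mmp11 shares 155 exonic bases with Chchd10 on the opposite strand, and the strand setting of the counting is not given in the sources used here, so reads on those bases may belong to either gene.

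Mmp14 (ENSMUSG00000000957, 14:54431612-54445364, plus strand) encodes a membrane-anchored metalloproteinase that cuts fibrillar collagen and activates the Mmp2 precursor at the cell surface. In 2% HS it ran from 482 to 536 CPM (median 505.5), and in SD from 450.1 to 537.5 (median 476). These groups overlapped, and the log2 fold change was -0.05 (95% interval -0.14 to 0.04, adjusted p = 0.410). Its CPM was 463 to 497 in MET, 451.5 to 489 in LEU and 371 to 484 in MET+LEU, with medians of 473, 469 and 464.

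In MET+LEU vs. SD, Mmp14 had a log2 fold change of -0.12 ± 0.04 (95% interval -0.21 to -0.03), and its adjusted p of 0.0607 did not pass. All 6 MET+LEU libraries lay below the SD mean and 2 below every SD library. Without MET+LEU replicate 6, at 371 CPM, the log2 fold change was -0.07 (adjusted p = 0.192). Mmp14 passed in 19 of the 30 fits that left out 1 library, and in 4 of 7 other alternatives. Most of the 19 left out a library of 2% HS, MET or LEU, so the libraries compared were the same and these fits check neither group. The lowest adjusted p was 0.0217, without SD replicate 6. Against 2% HS, Mmp14 was lower in MET+LEU by -0.17 ± 0.04 on the log2 scale (adjusted p = 0.00190), with 5 of 6 libraries below all of 2% HS, and at -0.13 without replicate 6 (adjusted p = 0.00319).

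**Figure D2:**
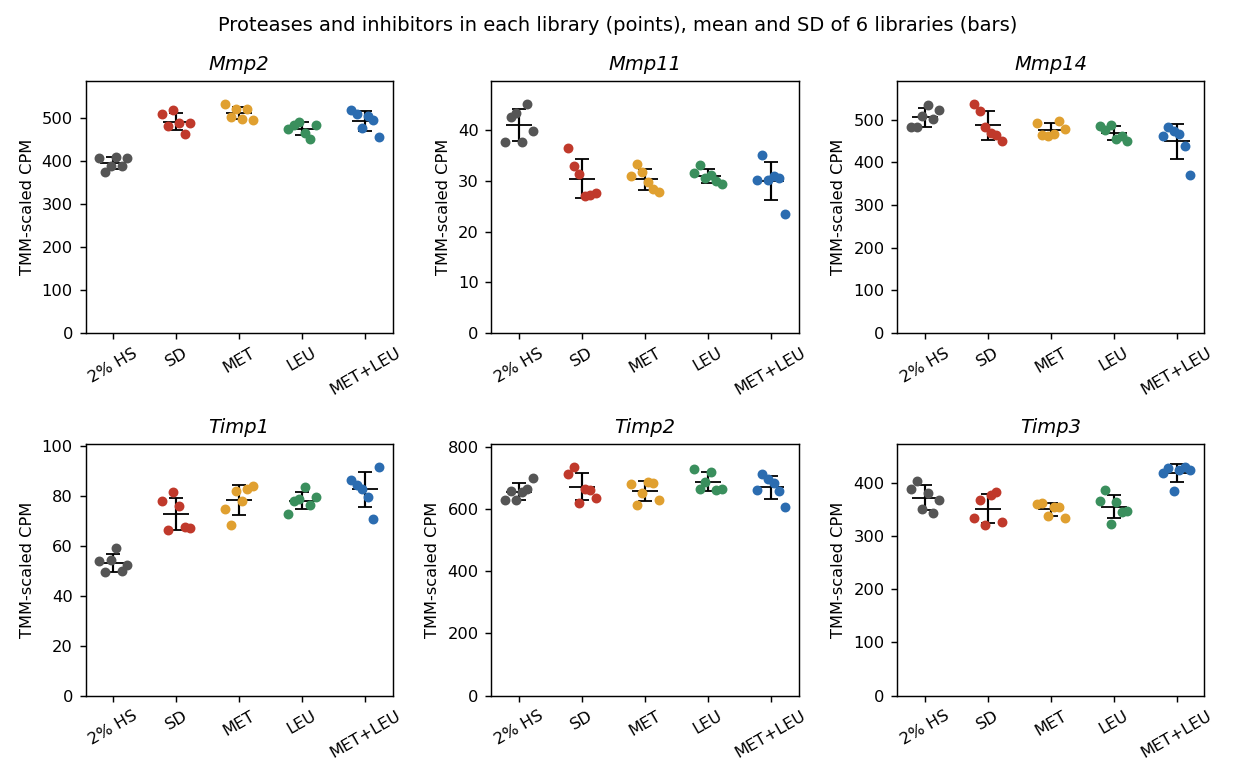
TMM-scaled CPM of the 6 members tested in each of the 30 libraries (points, by group on the x axis), with the mean and SD of each group (black bars). Mmp2 and Timp1 sit higher and Mmp11 lower in SD than in 2% HS, and Timp3 is higher in MET+LEU than in SD.

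Timp1 (ENSMUSG00000001131, X:20870166-20874735, plus strand) encodes a secreted inhibitor of most soluble metalloproteinases that binds Mmp14 only weakly. Its CPM was 49.5 to 59.2 in 2% HS (median 53.2) and 66.3 to 81.5 in SD (median 71.8). The ranges did not overlap. The log2 fold change of SD vs. 2% HS was 0.45 ± 0.06, with a 95% interval of 0.33 to 0.56 and an adjusted p of 2.0e-08.

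Fibroblast markers moved in the same comparison as Mmp2 and Timp1. Of 6 on the list, 5 passed the filter (Pdgfra, Dcn, Lum, Dpt and Col1a1) and all 5 were higher in SD than in 2% HS, with a median log2 fold change of 0.79. Their summed CPM was 548 to 644 in 2% HS against 787 to 948 in SD, and 797 to 922 with MET, 704 to 832 with LEU and 671 to 757 with MET+LEU. Thy1, a further fibroblast marker, had 0 counts in 19 of 30 libraries and 21 counts in all. Col1a1 carries most of the sum. The undifferentiated myoblast markers summed to 778 to 835 CPM in 2% HS and 646 to 721 in SD, and the myotube markers to 38320 to 41300 and 31620 to 34030. Within these lists, Pax7 (-0.37) and Cdh15 (-0.36) were lower and Cd34 (0.43) higher among 6 myoblast markers. Of 8 myotube markers, Ttn (-0.33), which holds most of that sum, and Ckm (-0.98) were lower, Des (0.13) was higher and 5 did not pass. The part of these cell types in the results on Mmp2, Mmp11 and Timp1 was not tested.

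With a single agent, no member passed. Of the 6 members, edgeR called 0 in MET vs. SD, where 0.157% of all genes tested passed, and 0 in LEU vs. SD, where 0.553% passed. In either comparison 0 members had an unadjusted p under 0.05, beside 10% and 9.98% of all genes, and DESeq2 called 0. Timp1 came nearest. Its CPM was 68.5 to 84.0 in MET (median 80.0) and 73.0 to 83.7 in LEU (median 78.35), both overlapping SD. The log2 fold change was 0.10 in MET vs. SD (95% interval -0.01 to 0.22, adjusted p = 0.544), and 0.10 in LEU vs. SD (95% interval -0.01 to 0.21, adjusted p = 0.566). Each interval allows a change of the size seen with both agents.

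Both agents together were then set against SD. Of the 6 members, Timp1 and Timp3 passed, both higher, where 18.4% of genes tested passed and 10.6% passed as higher. The median log2 fold change was 0.18 for the 3 TIMPs tested and -0.02 for the 3 metalloproteinases, beside -0.01 over all genes tested. No test of the families against each other was made.

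Markers of cell types also moved in MET+LEU vs. SD, in both directions. The myotube genes Tnnt3 and Myh3 were higher by 0.82 and 0.36 on the log2 scale, and the other 6 of 8 did not pass. Among fibroblast markers Dcn was higher by 0.48 and Col1a1 lower at -0.35, with 3 of 5 not past the threshold. The myoblast list had Cdh15 (-0.23) and Mki67 (-0.35) lower and 4 of 6 not past it, with summed levels of 569 to 635 CPM in MET+LEU. Their part in the changes of Timp1 and Timp3 was not tested.

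Timp1 in MET+LEU ran from 71.0 to 91.8 CPM (median 83.5), and 4 of the 6 libraries lay above every SD library. The log2 fold change of MET+LEU vs. SD was 0.18 ± 0.06, with a 95% interval of 0.07 to 0.29 and an adjusted p of 0.0174. This call rested on few libraries. It was lost without MET+LEU replicate 6 (0.15, adjusted p = 0.0683), without MET+LEU replicate 1 (0.16, adjusted p = 0.0512), and without SD replicate 2, 5 or 6, with the highest adjusted p of 0.0706 without SD replicate 2. MET+LEU vs. MET and MET+LEU vs. LEU gave 0.08 each (95% intervals -0.03 to 0.19), which did not pass. Against 2% HS, Timp1 in MET+LEU was higher by 0.63 ± 0.06 on the log2 scale (adjusted p = 1.8e-12), or 0.59 without replicate 6.

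Timp3 (ENSMUSG00000020044, 10:86300372-86349506, plus strand) encodes the TIMP that stays bound to the extracellular matrix and also inhibits ADAM17 and several ADAMTS enzymes. Its CPM was 343.5 to 404 in 2% HS (median 375) and 322 to 383 in SD (median 352). With MET it was 334 to 363 (median 355), with LEU 323 to 386 (median 356) and with MET+LEU 384 to 431 (median 425). The 4 other groups overlapped one another. No MET+LEU library fell within the range of SD or of MET, and 5 of 6 exceeded all of LEU, with the lowest, replicate 3 at 384.4, just above the highest SD library at 383.4.

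Timp3 had a log2 fold change of 0.25 ± 0.04 in MET+LEU vs. SD (95% interval 0.16 to 0.34, adjusted p = 5.3e-05). It was 0.26 ± 0.04 in MET+LEU vs. MET (adjusted p = 1.8e-04) and 0.24 ± 0.04 in MET+LEU vs. LEU (adjusted p = 9.0e-04), in both of which it was the 1 member to pass, where 8.69% and 6.28% of genes passed in either direction and 5.54% and 4.61% as higher. Without MET+LEU replicate 6 the 3 values were 0.24, 0.24 and 0.22 and each still passed. In MET vs. SD it was -0.01 (95% interval -0.09 to 0.08), and in LEU vs. SD 0.01 (95% interval -0.07 to 0.10). SD vs. 2% HS gave -0.08 (95% interval -0.17 to 0.00, adjusted p = 0.157).

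Whether the pair of agents differed from the sum of each was tested as an interaction. Timp3 had an interaction of 0.24 ± 0.06 on the log2 scale, with a 95% interval of 0.12 to 0.37, an unadjusted p of 2.6e-04 and an adjusted p of 0.168. Across all genes 8 passed, 0.0503%, and 0 of the 6 members did. The 1 member Timp3 had an unadjusted p under 0.05, as did 8.73% of all genes, and DESeq2 called 0 of the 4 members to which it gave an adjusted p. For Timp1 the interaction was -0.03 (95% interval -0.18 to 0.13).

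Timp3 lies within Syn3, which is on the opposite strand and shares 1733 exonic bases with it. Syn3 had 23 counts over the 30 libraries, against 171616 for Timp3, and the number of Timp3 reads that fall on the shared bases is not known. Timp1 lies within Syn1 on the opposite strand with 0 shared exonic bases.

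Timp2 (ENSMUSG00000017466, 11:118301069-118355740, minus strand) encodes the inhibitor that links the Mmp2 precursor to Mmp14 at the cell surface. Its CPM was 629 to 700.4 in 2% HS (median 655) and 620.1 to 735.5 in SD (median 662.5). With MET it ran from 614 to 686, with LEU from 662 to 729 and with MET+LEU from 607 to 711, with medians of 666, 675 and 671. All 5 ranges overlapped. The log2 fold change was 0.03 in SD vs. 2% HS (95% interval -0.05 to 0.12). MET+LEU vs. SD gave -0.01 (95% interval -0.09 to 0.08), and neither interval went beyond 0.12 in either direction. Without MET+LEU replicate 6, at 607 CPM, the value of MET+LEU vs. SD was 0.02.

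**Figure D3:**
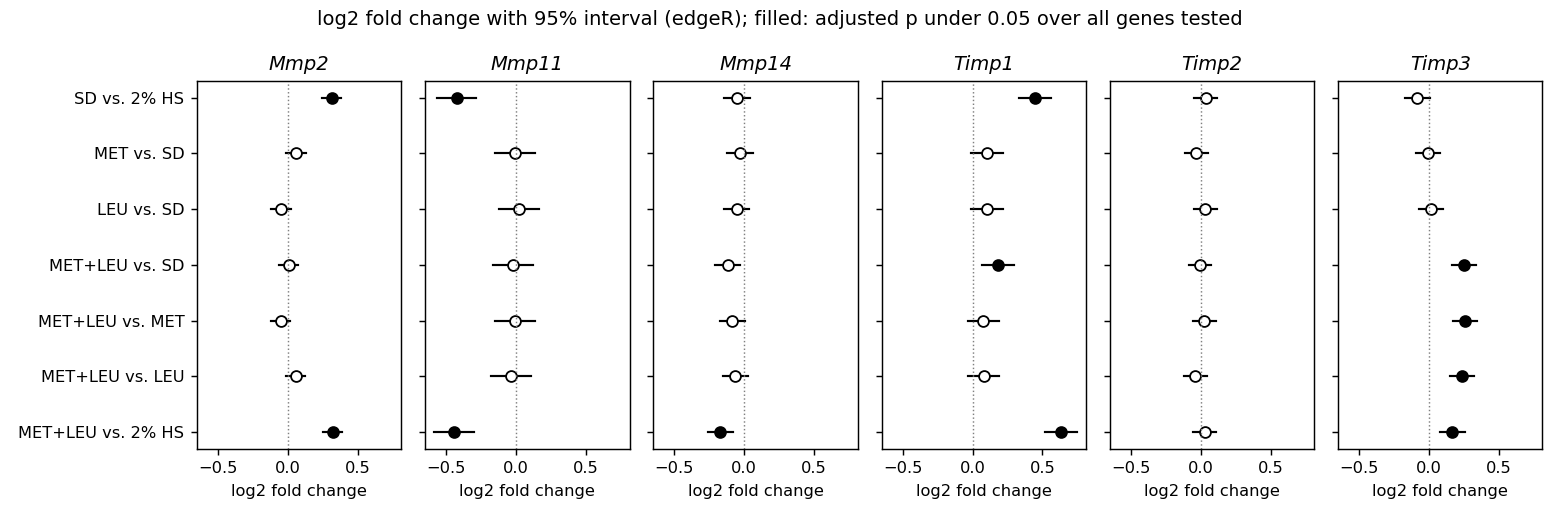
log2 fold change (x axis) with its 95% interval for the 6 members tested in 7 comparisons (rows). Filled points passed an adjusted p of 0.05 over 15907 genes: Timp3 is filled in all 4 comparisons of MET+LEU and in none of the other 3, and Timp2 in none.

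MET+LEU vs. 2% HS set the cultures with both agents and no serum against those with serum. Of the 6 members 5 passed, where 42.3% of all genes tested passed: Mmp2, Timp1 and Timp3 higher and Mmp11 and Mmp14 lower. Timp3 was higher by 0.17 ± 0.04 on the log2 scale (adjusted p = 0.00154), or 0.15 without MET+LEU replicate 6. Timp2 gave 0.03 (95% interval -0.05 to 0.11).

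The other members were at or near 0. Mmp3 (9:7445822-7455975) and Mmp10 (9:7502352-7510240), stromelysins that cut proteoglycans, laminin and fibronectin, had 0 counts in all 30 libraries. A count of 0 allows up to 3 counts, or 0.152 to 0.243 CPM per library, and this covers counting error only. Mmp9 (2:164940780-164955850), gelatinase B, had 24 counts in all, with at most 4 in a library and 0 in 19 of 30, which include all 6 MET libraries. Timp4 (6:115241892-115252205), known mainly from heart and brain, had 101 counts, from 0 to 9 per library, and lies within Syn2, a gene on the opposite strand with 1480 counts and 90 shared exonic bases.

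Under a lenient filter of more than 5 counts in total, Mmp9 and Timp4 could be tested and neither passed in any comparison. Mmp9, with 0 counts in MET, had its lowest adjusted p of 0.0935 in MET+LEU vs. MET (unadjusted p = 0.00568). In MET vs. SD its unadjusted p was 0.00791 (adjusted p = 0.402), and for the interaction 0.00455 (adjusted p = 0.446). These rest on 8 counts in MET+LEU and 7 in SD over 6 libraries each.

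**Figure D4:**
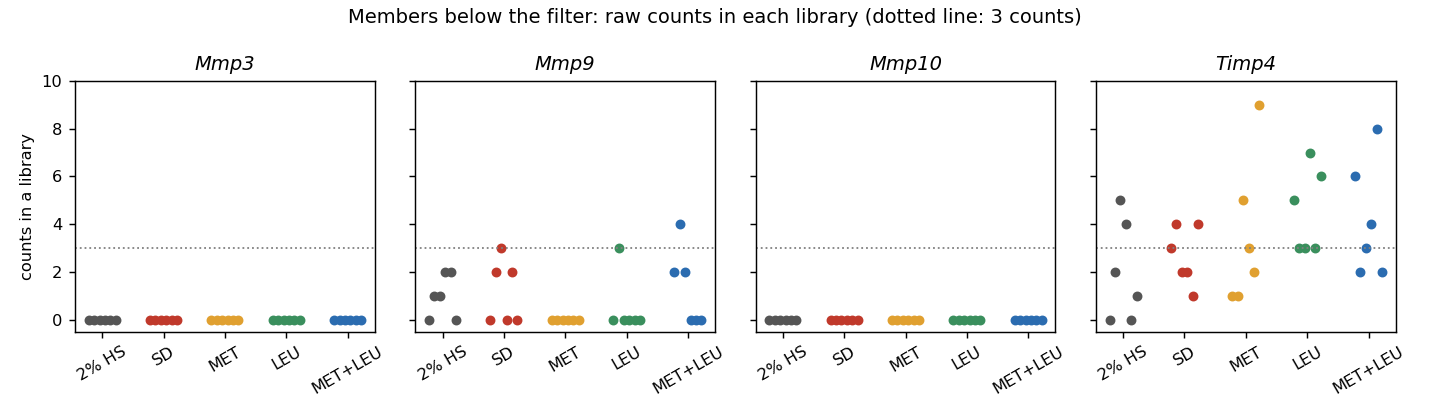
Raw counts (y axis) of the 4 members below the filter in each library (points) of the 5 groups, with a dotted line at 3 counts. Mmp3 and Mmp10 are at 0 throughout, Mmp9 reaches 4 and Timp4 reaches 9.

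Further metalloproteinases outside the members moved in both directions. Of 17 listed, 5 passed the filter. In SD vs. 2% HS, 2 were higher and 1 lower. Mmp16, a membrane-anchored enzyme, was at 4.22 ± 0.979 CPM in 2% HS and 6.94 ± 0.905 in SD (log2 fold change 0.72, adjusted p = 3.9e-05). Mmp19 was at 27.1 ± 0.505 and 36.25 ± 1.28 CPM (0.42, adjusted p = 1.2e-10). Mmp15, also membrane-anchored, was lower at -0.21 in SD vs. 2% HS (adjusted p = 6.3e-04). It was the list's 1 call in MET+LEU vs. SD, also lower (-0.15, adjusted p = 0.0220). The list's median was 0.24 in the former comparison and -0.02 in the latter.

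Genes of activation, membrane inhibition and clearance, which include the plasminogen system, moved in both directions. Of 12 tested, 4 were higher and 3 lower in SD vs. 2% HS (median 0.14). Thbs2, a matrix glycoprotein that binds Mmp2 and carries it to uptake by cells, rose from 80.5 ± 8.19 to 335 ± 19.5 CPM (2.06 ± 0.05 on the log2 scale, adjusted p = 4.8e-32). Plau, the urokinase that activates plasminogen, fell from 34.1 ± 3.01 to 23.7 ± 1.90 CPM (-0.52), and Serpine2 from 4.96 ± 0.535 to 3.21 ± 0.262 (-0.63).

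In MET+LEU vs. SD the same list had 0 higher and 3 lower of 12 (median -0.03). Plau was lower at -0.32 and Furin, which activates Mmp11 and Mmp14 precursors, at -0.17 on the log2 scale (adjusted p = 0.00320 and 0.00481). Furin went from 204 ± 12.6 CPM in SD to 182 ± 16.97 in MET+LEU.

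ADAM and ADAMTS proteases, relatives that shed membrane proteins or cut proteoglycans, split evenly in SD vs. 2% HS, with 5 higher and 5 lower of 14 tested (median -0.04). Adamts5, which cuts aggrecan and versican, fell from 158 ± 6.16 to 78.2 ± 5.42 CPM (-1.01), Adam19 from 275 ± 9.03 to 161 ± 10.2 (-0.78) and Adam8 from 10.1 ± 1.26 to 5.14 ± 0.577 (-0.97), while Adamts10 rose from 15.3 ± 1.603 to 22.98 ± 1.69 (0.59). In MET+LEU vs. SD, 1 was higher and 3 lower (median -0.09). Adamts2, which trims procollagen, was lower at -0.25 and Adam15 at -0.23, with Adam12 at -0.11 and Adam9 higher by 0.12. In LEU vs. SD 2 passed, both lower, Adamts12 at -0.22 (adjusted p = 0.00370) and Adamts2 at -0.16 (adjusted p = 0.0324), named after their values were seen.

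Other matrix proteases had 2 higher and 1 lower of 6 tested in SD vs. 2% HS (median -0.10). Htra1, a secreted serine protease, rose from 83.7 ± 4.26 to 163 ± 9.48 CPM (0.97, adjusted p = 1.0e-24). Bmp1, which cleaves procollagen ends, was higher by 0.13, and the lysosomal protease gene Ctsb lower at -0.19. In MET+LEU vs. SD, 2 were higher and 1 lower (median 0.03). Ctsl, another lysosomal protease gene, rose from 230 ± 18.3 to 280 ± 15.8 CPM (0.28, adjusted p = 2.5e-06), Htra1 was higher by 0.13 and Bmp1 lower at -0.10.

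Among 9 AP-1 and ETS factors, known regulators of Mmp and Timp promoters, 4 were higher and 1 lower in SD vs. 2% HS (median 0.28). Jun rose from 165 ± 6.13 to 214 ± 15.7 CPM (0.37), Fosl2 from 265 ± 6.50 to 339 ± 5.73 (0.35) and Fos from 11.5 ± 1.116 to 14.01 ± 1.57 (0.28), while Ets2 fell from 163 ± 5.98 to 137 ± 4.57 (-0.24). In MET+LEU vs. SD, 1 was higher and 2 lower (median -0.07): Jun higher by 0.15, Fos lower at -0.39 and Fosl2 at -0.15 on the log2 scale. Mmp3 and Mmp10, whose windows hold AP-1 letters, were at 0 counts in all of these groups.

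The genes most like each member in log2 CPM over the 30 libraries were found by Pearson's r, which is a description since libraries share groups and scaling. For Mmp2 they were Tbc1d16 (0.944), Fbn1, the fibrillin of elastic microfibrils (0.939), and Cxcl14 (0.932). For Timp1 they were Aebp1 (0.943), Olfml3 (0.942) and Lgals1 (0.941). Mmp14 was closest to Vat1 (0.949), Mmp11 to Adssl1 (0.942), Timp3 to Zc3h14 (0.860) and Timp2 to Mfsd13a (0.713). After group means were removed, r was 0.935, 0.832, 0.679 and 0.697 for these pairs in that order. It was 0.633, 0.573 and 0.492 for the genes named with Mmp2, and 0.641, 0.586 and 0.770 for those named with Timp1.

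Among the members, Mmp2 and Timp1 had r = 0.838 over the 30 libraries and 0.241 within groups. Mmp14 and Timp2 had 0.437 and 0.688, and Mmp11 and Mmp14 0.670 and 0.661. These values share libraries and scaling and are given without a test. They include MET+LEU replicate 6, the lowest of its group in Mmp2, Mmp11, Mmp14 and Timp2. No correlation without that library is given, for members or for the genes most like them.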

How the data were processed

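The authors prepared stranded libraries from RNA depleted of ribosomal RNA and sequenced them with 150 × 150 bp reads. Per the labels, the submitters' processing notes name GRCm38, cutadapt 1.16, STAR 2.7.6a, featureCounts 1.6.3 and DESeq2 1.30.1. The annotation release and the strand setting of the counting are not given in the sources used here. The deposited values are raw counts per gene, whole numbers without normalization. Of 55487 identifiers, 55227 matched GENCODE M21, which gave symbols, coordinates and exon lengths, and the other 260 held 0.00434% of counts.

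Counts were analysed in R 4.3.3. edgeR 4.0.16 kept 15907 genes (filterByExpr, minimum count 10, minimum total count 15), scaled the 30 libraries by TMM and fitted a mean for each of the 5 groups (glmQLFit, robust). Contrasts were tested by quasi-likelihood F tests at a threshold of 0.05 after Benjamini-Hochberg adjustment across every gene tested. The standard error is the log2 fold change over the square root of F. Correlations used log2 CPM with a prior count of 2. The members and gene lists were chosen with earlier results of these data known. All 10 members are named, with up to 4 called genes of largest change from each list in SD vs. 2% HS and MET+LEU vs. SD, and the 3 genes most correlated with a member. A gene of these lists that the rule names is not reported here, though list counts and medians include it. Beside the 5 lists of proteases and regulators, marker lists covered myotubes, undifferentiated myoblasts, fibroblasts, macrophages and leukocytes, and endothelium. Of the macrophage and leukocyte markers 1 of 6, Cd68, passed the filter, and the list summed to 1.79 to 4.79 CPM.

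On simulated data for SD vs. 2% HS with 15907 genes, 160 of 200 genes changed 1.5-fold and 191 of 200 changed 2-fold were recovered, with 10 and 18 false calls. The same spread was set for every gene. Smaller changes, such as those of Timp1 and Timp3 in MET+LEU vs. SD, were not simulated. Alternatives were upper-quartile normalization or DESeq2's size factors, voom with quality weights per library (limma 3.58.1), the Wald test of DESeq2 1.42.0, a filter of more than 5 counts in total, a fit of the compared groups alone, a block by replicate number, and leaving out each of the 30 libraries. Sequences are from RefSeq.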

Additional observations from a re-analysis of the deposited data

Results flagged for a closer look

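Timp3 in MET+LEU replicate 3 was at 384.4 CPM, away from the other 5 libraries of its group, which lay between 418.8 and 431.2. The gap to the nearest library was 0.734 of the group's range, above the critical ratio of 0.625 for 6 values. It was the 1 library so marked among 30 sets of a member and a group, and chance marks about 1 in 20 such sets. Without it, the log2 fold change of Timp3 in MET+LEU vs. SD was 0.27 (edgeR, adjusted p = 1.7e-05), so the call held.

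MET+LEU replicate 6, the library with the most ribosomal RNA, was apart from its group in the metalloproteinase sum, at 205.7 CPM per kilobase against 231.8 to 245.2 in the other 5 libraries (gap 0.661 of the range). Its ratio of TIMP to metalloproteinase transcripts was 1.514 against 1.301 to 1.373 (gap 0.660). These were 2 of 15 sets of a sum or ratio and a group, and the ratio uses the sum. Setting this library aside was chosen after seeing the data.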

How the results depend on the processing

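The 12 results of members past the threshold kept their direction in all alternatives. Of 360 fits that left out 1 library, 355 kept the call, and of 84 other fits 83 did. Each call compares 2 groups, so most fits without a library left both compared groups whole and tested the call little. The 5 that lost it all left out a library of SD or MET+LEU. The calls lost were all of Timp1 in MET+LEU vs. SD (0.15 to 0.21 on the log2 scale when a library was left out), also with only the groups compared (adjusted p = 0.0611), where 1 member passed in place of 2. The count of members in MET+LEU vs. SD ran from 1 to 3 when a library was left out, with 1 without SD replicate 2 and without MET+LEU replicate 6. It was 3 in 16 of these 30 fits, where Mmp14 passed beside Timp1 and Timp3. Mmp14 passed in 3 more in which Timp1 did not, without SD replicate 5 or 6 or MET+LEU replicate 1. Mmp14 also passed with DESeq2's size factors (adjusted p = 0.0480), upper-quartile normalization (0.0274) and the DESeq2 Wald test (0.0491).

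Replicate numbers did not pair the samples: correlations of the same number between groups ran from -0.0913 to 0.143, and not every library correlated best with its own number. With the replicate number as a block, the interaction had 1 member, Timp3 (0.24, adjusted p = 0.0267), in place of 0, and Mmp14 passed in MET+LEU vs. SD (-0.12, adjusted p = 0.0460). The block changed no other call of a member. The share of all genes that passed with this block is not given here, so these calls cannot be set beside it.

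Of the 36 results not past the threshold, those near 0 changed sign in 57 of 1080 fits without a library and in 7 of 252 others. Under limma-voom, Mmp11 became 0.0356 in MET vs. SD, 0.052 in MET+LEU vs. SD and 0.0164 in MET+LEU vs. MET, Timp2 0.0181 in MET+LEU vs. SD and the Mmp2 interaction 0.0087. Timp3 in MET vs. SD became 0.0015 with more than 5 counts in total, and Mmp2 in MET+LEU vs. SD -0.0075 with upper-quartile normalization. When a library was left out, MET vs. SD ran from -0.0386 to 0.0564 for Mmp11, from -0.0499 to 0.0008 for Mmp14 and from -0.0281 to 0.023 for Timp3. LEU vs. SD ran from -0.0108 to 0.0842 for Mmp11 and from -0.0097 to 0.0416 for Timp3. MET+LEU vs. SD ran from -0.0169 to 0.0243 for Mmp2, from -0.0745 to 0.0368 for Mmp11, from -0.146 to -0.073 for Mmp14 and from -0.0353 to 0.016 for Timp2. MET+LEU vs. MET ran from -0.0687 to 0.0405 for Mmp11 and from -0.0027 to 0.0439 for Timp2, and MET+LEU vs. LEU from -0.0964 to 0.0124 for Mmp11. The interaction ran from -0.0292 to 0.0096 for Mmp2, from -0.1038 to 0.0183 for Mmp11, from -0.0748 to 0.0052 for Mmp14, from -0.074 to 0.0001 for Timp1 and from -0.0474 to 0.0075 for Timp2. The cause of these shifts was not tested.

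Per kilobase of the longest transcript in place of all exons, levels in 2% HS were 128.5 CPM for Mmp2, 17.98 for Mmp11, 156 for Mmp14, 177 for Timp2 and 79.0 for Timp3, since that length is shorter.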
